A study of Homo sapiens with 8 samples.

Results

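GATA2 binding was examined around 5 homeobox genes that code for regulators of tissue identity in the prostate and elsewhere: HOXB13, IRX3, IRX5, MEIS1 and MEIS2. Every peak with its summit within 200 kb of the RefSeq span of one of these genes was taken, and peaks sharing 1 bp or more were joined into regions. This gave 49 of the 71653 peaks in the lists, forming 26 of 36122 merged regions. The 5 windows did not overlap and covered 2362 kb together. All positions are in build hg38, and regions are numbered within a gene from the lowest coordinate upwards.

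The cells were VCaP, an established human line of castrate-resistant prostate cancer. Both groups had grown without steroids for 72 h, and for the last 24 h one group received the BET bromodomain inhibitor JQ1 at 1 µM. The other group is titled as not treated, while its growth protocol names a DMSO vehicle. It is called untreated here. Chromatin was precipitated with a GATA2 antibody in 2 replicates per group, and each of the 4 precipitates has its own peak list. The samples also include 4 inputs, for which no separate list was used here. The line models 1 tumour, and the labels do not say whether replicates were separate cultures, so that spread between lists may be technical.

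Homeobox proteins bind DNA through a homeodomain and set the identity of body segments and organs. HOXB13 is a posterior HOX factor found in prostate epithelium, where it binds chromatin beside the androgen receptor. MEIS1 and MEIS2 belong to the TALE class, whose homeodomain carries an extra loop, and they bind DNA together with HOX and PBX proteins. IRX3 and IRX5 are Iroquois factors of the same class, encoded by neighbouring genes on chromosome 16.

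The replicates differed more than the treatments did. The lists of replicate 1 held 6902 peaks untreated and 4974 with JQ1, and those of replicate 2 held 27373 and 32404. The number of precipitated reads at each summit could be recovered as a whole number for at least 99.66% of the peaks of every list. The smallest local background of a list was taken as its genome background. It was 1.25, 1.96, 1.13 and 1.56 reads in untreated replicate 1, untreated replicate 2, JQ1 replicate 1 and JQ1 replicate 2. The weakest called peaks had 8, 11, 7 and 8 reads in the same order. Genes active in luminal prostate cells gave the lists a locus check that says nothing of expression. A region present in all 4 lists lay within 200 kb of 5 of 5 such genes (KLK2, KLK3, TMPRSS2, FOXA1 and ACP3). KLK2 and KLK3 had the same best region. Of 5 genes bound by GATA2 in blood cells, 2 had such a region (CD34 and TAL1). The share over all coding genes was 33.4%. In JQ1 replicate 1 the TAL1 region was among the weakest peaks, at the top 99.6%.

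GATA2 peaks were found near all 5 homeobox genes, and in no list did a summit come closer than 1 kb to an end of their spans. The share of all coding genes without such a summit was not computed, so that this shows no trait of the 5 genes. RefSeq start windows of GRCh38.p14 were matched for 2 of the 5 genes, MEIS1 with 1 window and MEIS2 with 2. Those of CRNDE, a long noncoding RNA gene next to IRX5, were added because it holds the peaks nearest to a start. The 250 bases before the start are shown for each, 5′ to 3′ on the gene's strand, as gene starts without a GATA2 peak. None of the 4 lists had a peak overlapping any of them, and the share over all start windows was not computed. The nearest summit lay 4.03 kb from the MEIS1 start, 44.5 kb from the upper MEIS2 start and 1.53 kb from the CRNDE start, each time for a peak of JQ1 replicate 2.

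MEIS1, chr2:66434875-66435124, plus strand: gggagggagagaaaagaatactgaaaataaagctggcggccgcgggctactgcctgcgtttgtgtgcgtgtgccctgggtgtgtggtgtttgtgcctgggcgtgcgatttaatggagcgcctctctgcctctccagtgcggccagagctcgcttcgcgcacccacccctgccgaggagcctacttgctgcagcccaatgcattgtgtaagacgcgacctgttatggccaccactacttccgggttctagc

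MEIS2, chr15:37099107-37099356, minus strand: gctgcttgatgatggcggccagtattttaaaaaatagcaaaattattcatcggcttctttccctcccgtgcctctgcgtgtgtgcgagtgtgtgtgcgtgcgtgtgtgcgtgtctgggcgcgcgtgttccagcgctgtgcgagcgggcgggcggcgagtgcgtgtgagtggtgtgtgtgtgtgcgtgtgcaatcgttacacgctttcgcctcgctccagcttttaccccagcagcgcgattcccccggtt

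CRNDE, chr16:54928887-54929136, minus strand: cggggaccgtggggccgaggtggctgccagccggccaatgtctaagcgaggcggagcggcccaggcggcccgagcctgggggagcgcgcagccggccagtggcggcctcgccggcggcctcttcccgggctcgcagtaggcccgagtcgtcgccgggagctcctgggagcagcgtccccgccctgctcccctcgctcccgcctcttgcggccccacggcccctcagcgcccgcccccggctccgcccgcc

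The core letters GATA, which GATA factors recognise, and their reverse complement TATC were searched on both strands and would stand in capitals. They occurred 0 times in each of these windows, and also 0 times in the other MEIS2 window. Over all 35116 RefSeq windows of this length, 45.6% held the core and 22.3% held a longer form on either strand, either AGATAA with its variant AGATAG or the form TGATAA with its variant TGATAG. The CRNDE window had a GC content of 80%, the MEIS1 window 59.6% and the shown MEIS2 window 58.8%. This says only which letters these windows hold. The sequences under the peaks were not analysed here.

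Only 2 of the 26 homeobox regions were present in all 4 lists, one near IRX3 and one near MEIS2. That is 7.69%, close to the 8.96% of all merged regions present in every list. A further 4 of the 26 regions, one each near HOXB13, IRX5, MEIS1 and MEIS2, were in both untreated lists and in JQ1 replicate 2. They were not in JQ1 replicate 1, the shortest list. Over the genome 8% of merged regions had this pattern. Counted together, 6 of 26 regions (23.1%) were in both untreated lists, against 17.6% over the genome, and 2 of 26 were in both JQ1 lists, against 13.1%. The pattern of a complete loss with JQ1, both untreated lists and neither JQ1 list, was shown by 0 regions (0.62% over the genome), and the reverse pattern also by 0 (0.377%). Without replicate 1, where presence in a single list stands for the group, 3 regions were untreated alone and 10 were JQ1 alone. Without replicate 2, the numbers were 4 and 0. In each replicate the longer list had the higher number. The shares over the genome were not computed for these settings, so that the numbers show no trait of the homeobox regions.

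Peaks of replicate 2 alone made up 20 of the 26 homeobox regions (76.9%), about the share over the genome (77.1%). Both lists of replicate 2 held 13 of the 26 regions (50%), against 58.6% over the genome. The other 13 (50%, against 40% over the genome) were in only 1 list, of which 10 were in JQ1 replicate 2 and 3 in untreated replicate 2. These shares were 25.9% and 13.3% over the genome. The single-list regions of JQ1 replicate 2 lay near IRX3, MEIS1 and MEIS2.

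The number of GATA2 peaks at the 5 genes differed between treatments by less than its scatter over the replicates. Untreated replicate 1 had 6 and untreated replicate 2 had 17, while JQ1 replicate 1 had 2 and JQ1 replicate 2 had 24. The JQ1 lists were thus both the lowest and the highest, and the replicates went in opposite directions. This order was also that of the list lengths. Among the strongest 4974 peaks of each, the numbers were 5 and 2 untreated and 2 and 2 with JQ1, replicate 1 first. At equal length replicate 1 thus still differed and replicate 2 did not, and the mean of the log2 counts differed by −0.66. The part of list length in the numbers was not tested. Means were 11.5 ± 7.78 untreated and 13 ± 15.6 with JQ1 (SD, n = 2 each). The mean of the log2 counts differed by −0.54, while the log2 ratio of the means was 0.18, so that the direction turned with the kind of mean (exact permutation test over samples, two-sided, on the log2 counts, p = 1, smallest possible 0.333). Within replicate 1 the log2 difference was −1.58 and within replicate 2 it was 0.50.

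Set against the length of each list, the 5 genes took 0.0869% and 0.0621% of the untreated peaks and 0.0402% and 0.0741% of the JQ1 peaks. The groups overlapped. Means were 0.0745% ± 0.0176 untreated and 0.0571% ± 0.0239 with JQ1 (SD, n = 2 each), a difference of −0.43 between the means of the log2 shares (exact permutation test, two-sided, p = 0.667, smallest possible 0.333). It was −1.11 within replicate 1 and 0.25 within replicate 2.

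**Figure D1:**
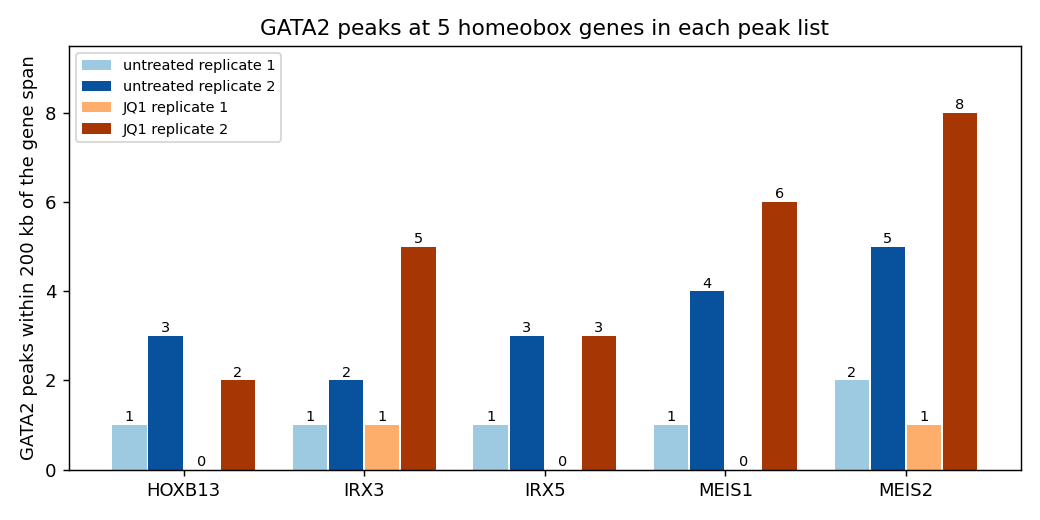
Bars give the number of GATA2 peaks within 200 kb of each gene span, 1 bar per peak list, with the number above it. JQ1 replicate 2 has the most peaks at IRX3, MEIS1 and MEIS2, and JQ1 replicate 1 has 0 at HOXB13, IRX5 and MEIS1.

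By this rule a gene with a GATA2 region nearby is common. Of 20037 protein-coding genes, 89.6% had a region of any list within 200 kb, 53.2% a region in both untreated lists, 41.7% one in both JQ1 lists and 33.4% one in all 4 lists. All 5 homeobox genes had a region and all 5 had one in both untreated lists, while 2 of 5 had one in both JQ1 lists and 2 of 5 one in all 4. The median coding gene had 4 regions. MEIS2 had 9, MEIS1 6, IRX3 5, and HOXB13 and IRX5 3 each. The windows of MEIS2 and MEIS1 were also the longest, at 612.1 and 538.7 kb against 403.5 to 404 kb for the others.

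HOXB13 (NCBI gene 10481, chromosome 17, 48724763 to 48728750) had its GATA2 regions on one side only, away from the rest of the HOXB cluster. The 3 regions stood 17.6, 30.8 and 32.2 kb beyond the upper end of its span, in no gene span and short of TTLL6, a tubulin ligase gene. The HOX genes HOXB1 to HOXB9 and the prostate-expressed genes PRAC1 and PRAC2 lie on the other side within the window, and 0 peaks of any list fell inside them. Of the peaks in this window, the nearest to HOXB9 was 120 kb away, and peaks outside the window were not measured for it.

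HOXB13 region 3, at 48760833 to 48761130, was the only one of the locus in both untreated lists. The −log10 q was 12 in untreated replicate 1, 16.6 in untreated replicate 2 and 8.30 in JQ1 replicate 2. The summit held 24 reads (95% Poisson interval 15.4 to 35.7), 70 (54.6 to 88.4) and 25 (16.2 to 36.9) in the same lists. The summits of the 3 lists fell within 14 bp. Local background at the site was also higher in untreated replicate 2, at 13.1 reads against 4.62 in JQ1 replicate 2, so that the authors' fold enrichment was close, at 4.90 and 4.63.

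The neighbouring HOXB13 region 2 lay 1.43 kb away and was found in replicate 2 only. Its −log10 q was 10.7 untreated and 19.5 with JQ1, so that by this value regions 2 and 3 stood in opposite order in these lists. By fold enrichment region 2 was the higher in both, at 6.16 against 4.90 untreated and 9.55 against 4.63 with JQ1. With JQ1 the summit of region 2 held 28 reads (95% Poisson interval 18.6 to 40.5), beside 25 (16.2 to 36.9) at region 3. HOXB13 region 1 was in untreated replicate 2 alone, with a −log10 q of 8.82. The nearest region present in all 4 lists was outside the window, with its summit at 48407369 beyond the other end of the HOXB cluster and 317 kb from HOXB13. Its −log10 q was 22.8 and 140 untreated and 5.67 and 46.8 with JQ1. This distant region was singled out after its values were seen.

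IRX3 (NCBI gene 79191, chromosome 16, 54283304 to 54286787) had the strongest GATA2 region of the 5 genes by a wide margin. IRX3 region 5, at 54425598 to 54426260, stood 139 kb beyond the upper end of the gene, in no gene span, and 505 kb short of IRX5. By p-value it ranked 17 of 6902 and 60 of 27373 untreated and 5 of 4974 and 19 of 32404 with JQ1, where pairs of values give replicate 1 first here and throughout. By the authors' fold enrichment it was first of its whole list in untreated replicate 1 and in JQ1 replicate 1, rank 2 in JQ1 replicate 2 and rank 237 in untreated replicate 2.

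Fold enrichment at IRX3 region 5 reached 34.1 and 38.2 untreated and 33.9 and 62.1 with JQ1. The summit held 86 reads (95% Poisson interval 68.8 to 106) in untreated replicate 1 and 71 (55.5 to 89.6) in JQ1 replicate 1. It held 232 (203 to 264) in untreated replicate 2 and 158 (134 to 185) in JQ1 replicate 2. Local background in replicate 2 was 4.65 reads untreated and 1.56 with JQ1. Over the genome background of its list, the site reached 68.7 and 63.0 times in replicate 1 and 119 and 101 times in replicate 2. The ratio to local background and the ratio to genome background thus gave opposite orders in replicate 2. The summits of the 4 lists fell within 18 bp, against a median of 24 bp (quartiles 15 to 38) over the 3236 regions in all 4 lists.

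Weaker peaks lined the same stretch in replicate 2. IRX3 region 4 lay 0.69 kb from region 5 and was found in both lists of that replicate, with a −log10 q of 23.4 untreated and 35.8 with JQ1. IRX3 regions 1, 2 and 3 were in JQ1 replicate 2 alone, with 16, 20 and 15 reads and a −log10 q of 8.92, 13.2 and 7.92. All 5 regions of the gene lay 116 to 139 kb beyond its upper end. On its other side the window holds the end of FTO, an RNA demethylase gene, and 0 peaks of any list.

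**Figure D2:**
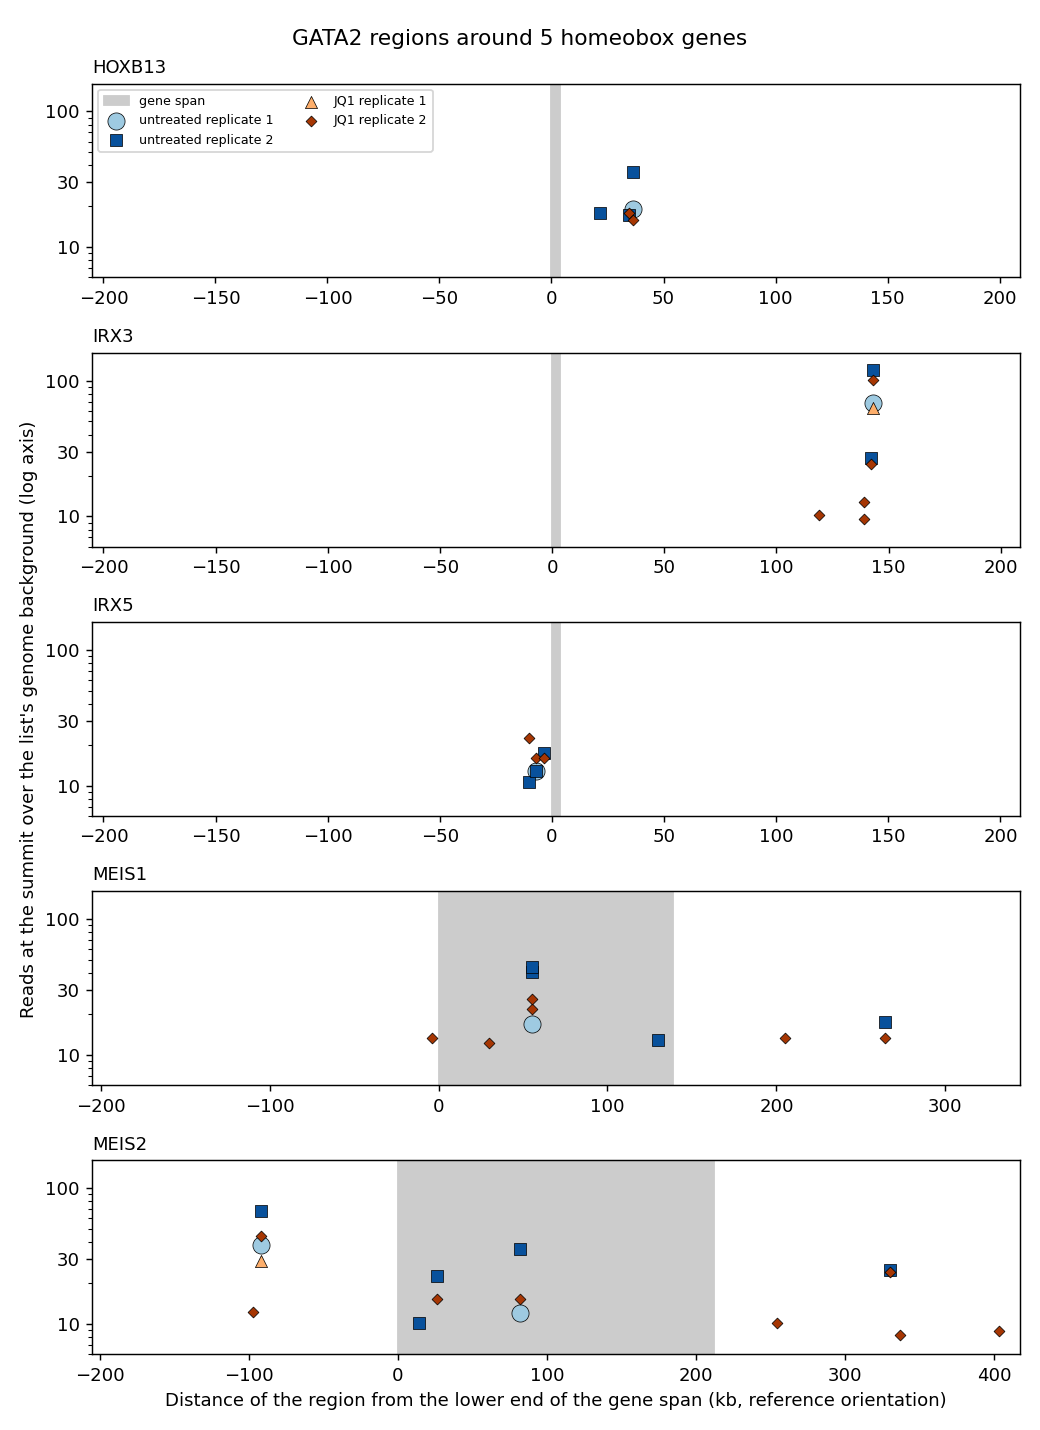
Each panel plots the regions of 1 gene by distance from the lower end of its span (kb) against the reads at the summit over the list's genome background (log axis), with 1 marker per peak and the gene span in grey. IRX3 region 5 reaches 63.0 to 119, HOXB13 and IRX5 have regions on a single side, and MEIS1 and MEIS2 have them on both sides and inside.

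IRX5 (NCBI gene 10265, chromosome 16, 54930865 to 54934485) had 3 closely spaced regions, 3.58, 7.26 and 10.4 kb below the lower end of its span. All 3 summits lay inside the span of CRNDE. The gene models used here give spans only, so that exons and introns were not told apart. All 3 regions were present in both lists of replicate 2, and none was in JQ1 replicate 1.

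IRX5 region 2, at 54923500 to 54923703, was in 3 lists. Untreated replicates 1 and 2 gave it a −log10 q of 8.22 and 8.24, and JQ1 replicate 2 gave 13.1. The reads were 16 (95% Poisson interval 9.15 to 26.0), 25 (16.2 to 36.9) and 25 (16.2 to 36.9). IRX5 region 1 held 21 reads (13 to 32.1) untreated and 35 (24.4 to 48.7) with JQ1 in replicate 2, or 10.7 and 22.4 times the genome background. It had the largest excess with JQ1 among the homeobox regions shared by the replicate 2 lists, on the log2 scale 1.07. IRX5 region 3, the nearest to the gene, had 17.4 and 16.0 times the background. All 3 values of untreated replicate 2 and all 3 of JQ1 replicate 2 lay between 10.7 and 22.4 times background, well under IRX3 region 5.

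MEIS1 (NCBI gene 4211, chromosome 2, 66435125 to 66573869) had 6 regions spread over 268 kb, of which 3 lay inside the gene. MEIS1 region 3, at 66490581 to 66491071 and 55.6 kb inside the span, was the only one in more than the replicate 2 lists. Both lists of replicate 2 had 2 summits in it, at 66490750 and 66490934 untreated and at 66490718 and 66490936 with JQ1. The first was the stronger untreated, with a −log10 q of 23.5 against 19.0, and the second with JQ1, with 27.8 against 22.6. Fold enrichment gave the same order, at 6.14 and 4.62 untreated and 9.42 and 10.3 with JQ1. By reads the second summit was the higher in both lists, at 86 against 79 untreated and 40 against 34 with JQ1. Untreated replicate 1 had a single summit there, at 66490743, with 21 reads and a −log10 q of 4.78, in the weaker part of its list at the top 82.9%.

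At the second summit of MEIS1 region 3, untreated replicate 2 held 86 reads (95% Poisson interval 68.8 to 106) and JQ1 replicate 2 held 40 (28.6 to 54.5). Local background there was 17.5 reads untreated and 2.99 with JQ1. The ratio to genome background was 44.0 untreated and 25.6 with JQ1, while the authors' fold enrichment was 4.62 untreated and 10.3 with JQ1. The order of the treatments therefore depended on which background was used.

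The remaining MEIS1 regions were in replicate 2 lists only. Regions 1, 2 and 5 were in JQ1 replicate 2 alone, in MEIS1-AS3, in MEIS1 and in LINC01798, with a −log10 q of 11, 7.74 and 10.5. Region 4 was in untreated replicate 2 alone, with 8.71. Region 6, in the noncoding gene LINC01797 and 125 kb beyond MEIS1, had 10.5 untreated and 2.37 with JQ1, where it stood among the weakest peaks of the list, at the top 97.5%. The nearest region present in all 4 lists was 731 kb from MEIS1.

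MEIS2 (NCBI gene 4212, chromosome 15, 36889204 to 37101311) had 9 regions over 500 kb, the most of the 5 genes, and the second region found in every list. MEIS2 region 2, at 36797067 to 36797485, stood 92.0 kb below the lower end of the gene, inside the span of CDIN1, a nuclease-related gene. MEIS2 is read from the minus strand in the RefSeq start windows, so that this side lies beyond the end of its transcripts. Region 2 had a −log10 q of 30.1 and 95.1 untreated and 17.4 and 65.4 with JQ1.

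In each replicate, MEIS2 region 2 was lower with JQ1 on every measure given here. The summit held 48 reads (95% Poisson interval 35.4 to 63.6) untreated and 33 (22.7 to 46.3) with JQ1 in replicate 1. In replicate 2 it held 134 (112 to 159) untreated and 70 (54.6 to 88.4) with JQ1. Over genome background these were 38.3 and 29.3 times in replicate 1 and 68.5 and 44.8 times in replicate 2, and the fold enrichments were 9.67 and 7.76, then 23.2 and 17.8. The log2 differences over genome background were −0.39 and −0.61. Over all regions shared by the same lists, the medians were −0.22 (quartiles −0.53 to 0.11) and −0.20 (−0.50 to 0.16), so that MEIS2 region 2 lay within the quartiles in replicate 1 and below them in replicate 2. No test was run on this region. Its standing within the lists was the top 9.68% and 3.94% untreated and 16.4% and 6.80% with JQ1.

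Inside MEIS2, region 5 at 36970648 to 36970943 was in both untreated lists and in JQ1 replicate 2. It held 15 reads (95% Poisson interval 8.40 to 24.7), 70 (54.6 to 88.4) and 24 (15.4 to 35.7) in these lists. Local background was 1.55, 10.2 and 2.77 reads, and the fold enrichments were 6.27, 6.13 and 6.63. Fold enrichment was thus nearly level where the reads were not. MEIS2 region 4, also inside the gene, had a −log10 q of 20.5 untreated and 9.54 with JQ1 in replicate 2. Region 7, 118 kb beyond the upper end, had 16.5 and 32.4. Region 3 was in untreated replicate 2 alone, with 6.57, and regions 1, 6, 8 and 9 in JQ1 replicate 2 alone, with 12.1, 5.33, 5.14 and 5.41.

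**Figure D3:**
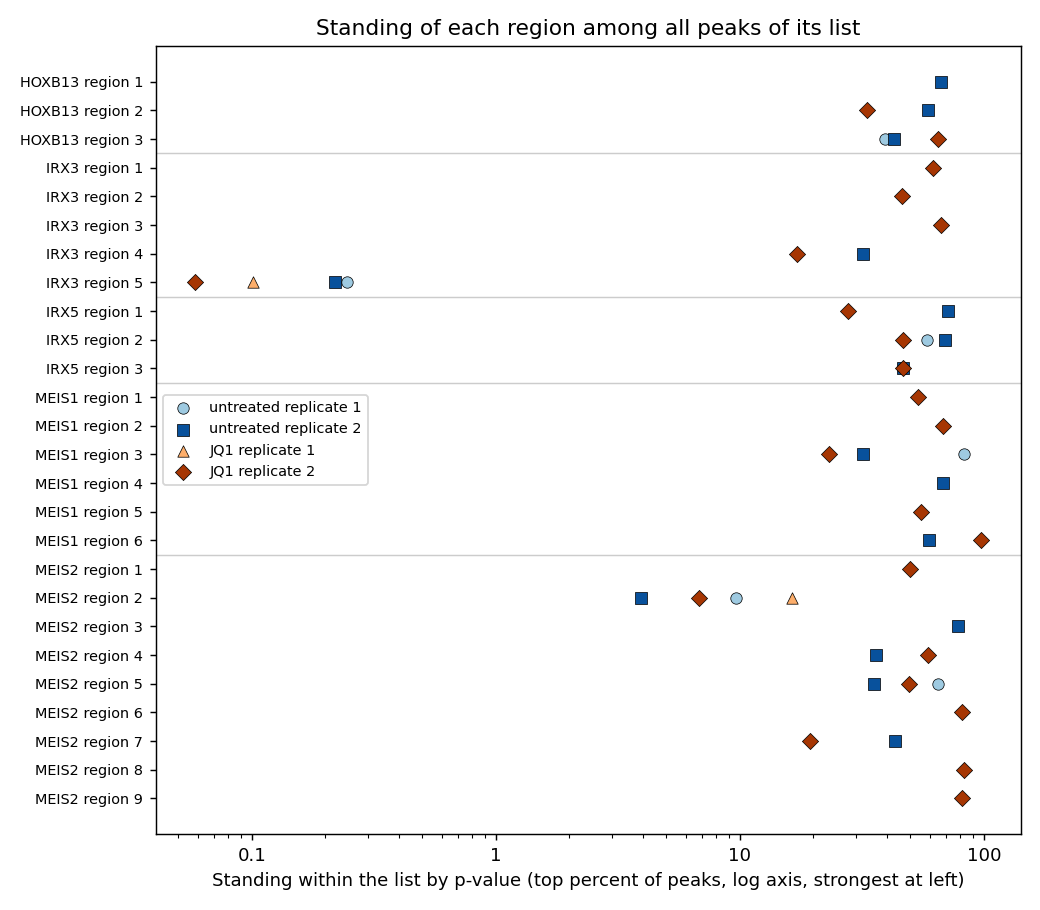
Each row is a region and each marker its standing by p-value among all peaks of 1 list (top percent, log axis, strongest at left). IRX3 region 5 lies at the top 0.0586% to 0.246% and MEIS2 region 2 at 3.94% to 16.4%, and the other 24 regions spread from 17.2% to 97.5%.

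As a set, the homeobox regions were of ordinary strength for their lists, apart from IRX3 region 5 and MEIS2 region 2. The median standing of a homeobox region was the top 49.0% in untreated replicate 1, 44.9% in untreated replicate 2 and 49.8% in JQ1 replicate 2. In JQ1 replicate 1 it was 8.25%, from these 2 regions alone. The median fold enrichment of the homeobox peaks was 6.82 and 6.16 untreated and 20.8 and 6.77 with JQ1, beside 6.14, 7.46, 5.94 and 6.62 for the whole lists in the order untreated 1, untreated 2, JQ1 1 and JQ1 2.

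In the lists of replicate 2, the direction of the difference between treatments turned on the background used. Of 13 shared homeobox regions, 3 (23.1%) had more reads over genome background with JQ1, against 35.3% of the 21173 regions shared over the genome. By fold over local background, 8 of 13 (61.5%) were higher with JQ1, against 44.4% over the genome. The median log2 difference over genome background was −0.24 for these 13, beside −0.20 over the genome. In replicate 1 both shared regions, IRX3 region 5 and MEIS2 region 2, were lower with JQ1 by either measure, where 32.8% and 39.1% of 3261 shared regions were higher.

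Several homeobox sites had a raised local background in untreated replicate 2. Local background exceeded 5 times the genome background at 4 of its 17 homeobox peaks, against 3.35% of the whole list. The numbers were 0 of 6, 0 of 2 and 0 of 24 in untreated replicate 1, JQ1 replicate 1 and JQ1 replicate 2. Those whole lists had 3.68%, 3.77% and 1.21%, shares at which 0 among so few peaks is ordinary. The 4 peaks belong to HOXB13 region 3, MEIS1 region 3 and MEIS2 region 5. These 3 regions also had the largest deficits with JQ1 over genome background, at −1.16, −0.78 and −1.22 on the log2 scale. The part of the local background in these deficits was not tested, and the limit of 5 times was chosen after the values were seen.

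**Figure D4:**
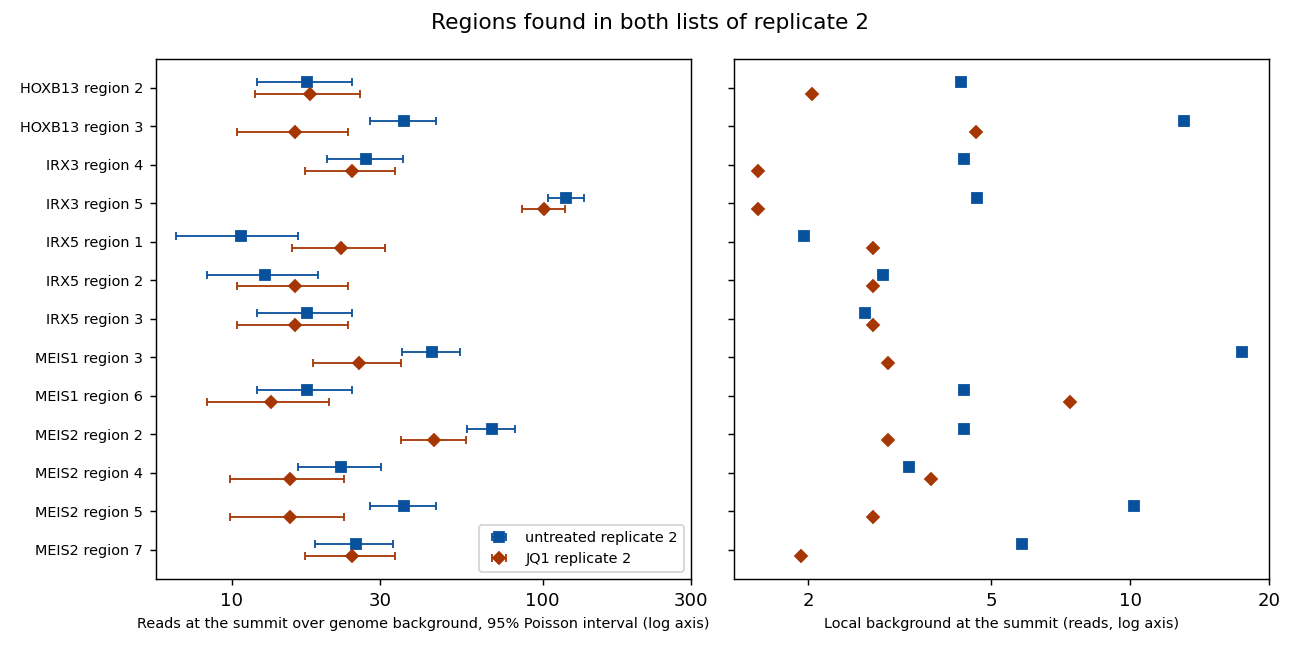
For the 13 regions in both replicate 2 lists, the left panel gives reads at the summit over genome background with 95% Poisson intervals and the right panel the local background in reads, both on log axes. Untreated intervals lie wholly above those with JQ1 at HOXB13 region 3, MEIS1 region 3, MEIS2 region 2 and MEIS2 region 5, and 3 of these have an untreated local background of 10.2 to 17.5 reads.

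Related homeobox genes were looked at by the same rule, with a region in all 4 lists within 200 kb counted, beside 33.4% of all coding genes. Of 14 TALE relatives of MEIS and IRX, 4 had one. Among these were PBX3, which codes for a partner of HOX and MEIS proteins, IRX4 and TGIF1. The PBX3 region lay inside the gene, with a −log10 q of 7.55 and 50.6 untreated and 17.2 and 40.3 with JQ1. It stood lower in every list than IRX3 region 5. Of these 14 genes, 8 had a region in both untreated lists and 5 one in both JQ1 lists. The shares over all coding genes were 53.2% and 41.7%.

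Among the 38 HOX genes other than HOXB13, 18 had a region in all 4 lists within 200 kb, but these best regions were only 3 distinct ones shared by neighbours in the clusters. HOXA10, HOXA11, HOXA13, HOXA3, HOXA6, HOXA7 and HOXA9 shared a region with its summit at 27346884 on chromosome 7, 147 kb from HOXA13. Its −log10 q was 29.7 and 109 untreated and 11.1 and 118 with JQ1. HOX genes with a region in both untreated lists numbered 35 of 38, against 53.2% of all coding genes. Those with one in both JQ1 lists numbered 36 of 38, against 41.7%. Neighbours count the same regions again.

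Of 16 other homeobox genes known from prostate research, 5 had a region in all 4 lists, among them EN2, SATB1, ZFHX3 and CUX1. Of the 3 regions of ZFHX3 in all 4 lists, the best-ranked lay inside this large zinc-finger homeobox gene. Its −log10 q was 25.9 and 65.4 untreated and 9.93 and 66.9 with JQ1. The EN2 region, 183 kb away, stood at the top 2.88% to 8.08% of the lists, the best mean standing of this group.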

How the data were processed

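The submitters' processing notes name build hg38 and the tools Bowtie2, Picard and MACS2. Their versions, and whether inputs served as control, are not stated in the labels used here. Each deposited list belongs to 1 precipitate and was called separately, per the labels. The authors' lists give a whole-number score, which was not used. The fold enrichment is a linear ratio of signal over local background at the summit, computed per peak by the authors before they deposited it. The p-value and the q-value stand as their −log10, also from the authors. All are values per peak, read within a list or set side by side as description. The files hold positions, scores and values, but no counts.

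Only placed nuclear chromosomes were kept, which left out 10 lines of JQ1 replicate 1 and 8 of untreated replicate 2. Reads at a summit were recovered by solving the fold, (reads + 1) over (local background + 1), together with the p-value, its Poisson tail. Whole reads matched within 0.002 of the deposited −log10 p. In untreated replicate 2 the values could be solved only with the precipitate scaled by 0.686, and they were scaled back. No source used here states that scaling. The smallest local background of a list was taken as its genome background. Poisson intervals cover counting error only. Presence and recovered reads were tested on simulated data built with the same formulas. This checked the computation, not whether the formulas or the merging suit the real lists. Spans came from RefSeq (GRCh38.p14, 20037 coding genes), and distances run from the summit in untreated replicate 2 where present.

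The exact permutation test used scipy 1.17.1, on Python 3.11.15. Genes were named by rule: the 5 members, their neighbours, and up to 8 genes per related list with a region in all 4 lists, some of which are not reported here. Members and lists were chosen with earlier results of these data known. Alternatives were a q of 1e-05, equal list lengths, a 50 kb window, 50% reciprocal overlap, ranking by fold, and leaving out replicates or loci.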

Additional observations from a re-analysis of the deposited data

How the results depend on the processing

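With 2 lists per group and short lists in replicate 1, presence in every list depended on replicate 1. Leaving out replicate 1 or replicate 2, the number of homeobox regions in all remaining lists ran from 2 to 13, those untreated from 6 to 16, those with JQ1 from 2 to 23, those untreated alone from 3 to 4 and those with JQ1 alone from 0 to 10. The log2 difference in peaks ran from −1.58 to 0.50 and that in the share of a list from −1.11 to 0.25, so that both reversed without replicate 1. Within 50 kb of the spans, 0 regions were in all 4 lists and 0 in both JQ1 lists, and JQ1 replicate 1 had 0 peaks, so that no log2 difference could be given. With lists of equal length (4974 peaks), 2 regions were in both untreated lists. JQ1 replicate 2 kept 2 of its 24 peaks and untreated replicate 2 kept 2 of 17, so that replicate 2 showed no difference. Untreated replicate 1 kept 5 of 6 peaks and JQ1 replicate 1 kept 2 of 2, and the log2 difference was −0.66 in peaks and in share. The cause of these shifts was not tested, apart from the fewer peaks or lists that the alternatives themselves keep. At a q of 1e-05 or less and with 50% reciprocal overlap, no count of regions moved by over 1.5 times, and at that q and without each locus in turn both log2 differences stayed negative. JQ1 replicate 1 kept 1 of its 2 peaks (0.0201% of the list) without the IRX3 and IRX5 loci, and also 1 without the MEIS2 locus. Ranked by fold, the median standing was the top 12.4% in place of 8.25% in JQ1 replicate 1 and 63.3% in place of 44.9% in untreated replicate 2.

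Replicate numbers are shared by the groups, but the labels do not say what they pair. Over the 3236 regions in all 4 lists, the differences between replicates correlated across treatments with r = 0.39, as a description. With the replicate block, the log2 difference was −0.54 in peaks and −0.43 in share (exact sign-flip permutation p = 1 for both, smallest possible 0.5).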
